A study of Arabidopsis thaliana with 16 samples.

Results

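The response of wild-type Arabidopsis thaliana seedlings to 15 min of salt was described from 4 of the 16 libraries of the series, chosen by their labels. They are 2 libraries of Col-0 seedlings in 300 mM NaCl for 15 min and 2 of Col-0 seedlings in the same medium without NaCl, the mock, all 14 days old. Poly(A) RNA of whole seedlings in liquid half-strength MS medium was sequenced, and the series asks how the co-regulator SEUSS bears on tolerance of hyperosmotic stress. Alongside, 4 libraries of the mutant seu-6 (mock and 300 mM NaCl, 15 min, 14 days) entered the same fit, and 4 libraries of Col-0 aged 10 days (mock and 250 mM sorbitol, 6 h) served for comparison. The remaining 4 libraries, seu-6 in the 6 h mock and in sorbitol, were used where all 16 are named. Each group has 2 biological replicates.

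As background, a salt solution acts on roots within seconds as an osmotic shock and more slowly through sodium itself. Both raise cytosolic calcium and activate protein kinases, and abscisic acid (ABA), made in response to water loss, binds PYR/PYL receptors that inhibit clade A PP2C phosphatases and so release SnRK2 kinases and ABF factors. Handling, wounding and transfer to liquid call up early genes of their own, among them touch, jasmonate, ZAT and WRKY genes, which rise within minutes and fall again within hours.

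Gene counts in the 4 libraries lay between 40678739 and 42676953, and between 39756463 and 42135058 in the other 12. Replicates differed from each other by more than counting error, so none was counted as a duplicate. Sums over 21 light-harvesting and Rubisco genes, which mark green tissue and of which 20 had a count in each library, were 90950 and 91943 CPM (read counts scaled to library size with TMM factors) in the mocks and 80579 and 81962 under NaCl. Sums over 18 root markers were 216 and 226 CPM in the mocks and 136 and 132 under NaCl, and each of the 18 had a count in every library. Sums over 8 guard cell and stomatal lineage markers were 53.0 and 51.4 CPM, and 75.4 and 71.4 under NaCl. In bulk seedlings, fewer cells of a type and less RNA per cell cannot be told apart, and the part of these markers in the results below was not tested. A value with ± beside a gene is its log2 fold change, NaCl against mock, with the standard error from edgeR's quasi-likelihood test, and adjusted p values are by Benjamini-Hochberg over all genes tested.

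Within 15 min of NaCl, edgeR called 3482 of 22066 genes higher (15.8%) and 3893 lower (17.64%), and most changes were small. Counts of list members called, given below, are to be read beside these 2 shares. Members and lists were chosen with earlier results of these data known, so an excess over the shares can follow in part from that choice. The median absolute log2 fold change among the 7375 genes called was 0.41. Genes past 2-fold numbered 730 higher (3.31%) and 622 lower (2.82%). Higher calls made up 47.2% of the calls with TMM scaling and 63.1% with scaling by total counts, which moved the median of all genes from 0.0067 to 0.075 on the log2 scale. Without replicate 2 of Col-0 under NaCl, edgeR called 2315 genes higher. P-values rest on the spread between biological replicates over the 8 libraries of the 15 min experiment, seu-6 included. In the fit that spread is drawn toward a trend over all genes.

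The large rises and the large falls were of different kinds of gene. The 622 genes lower by over 2-fold had a median average level of 2.37 log2 CPM, and the 730 higher ones of -0.71 log2 CPM. Of the 730, 488 stayed under 2 CPM in both groups, against 113 of the 622. Among genes with an average level under 0 log2 CPM, 461 were called higher and 85 lower of 2788. Among those at 8 log2 CPM and over, 112 were called higher and 262 lower of 518.

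**Figure D1:**
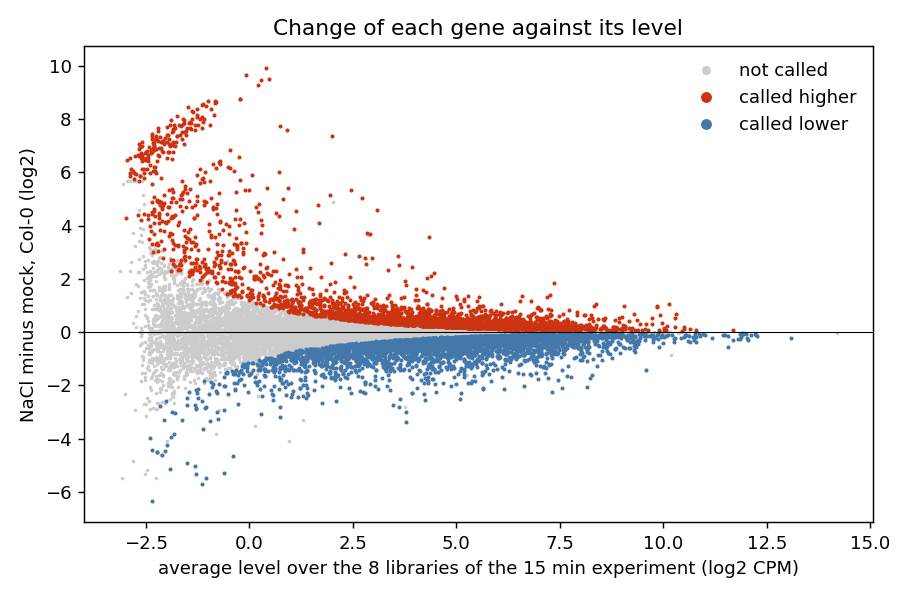
Log2 fold change of NaCl against mock in Col-0 (vertical axis) against the average level of each of the 22066 genes tested over the 8 libraries of the 15 min experiment (horizontal axis, log2 CPM), with genes called higher in red and lower in blue. Below 0 log2 CPM 461 genes are called higher and 85 lower. For a gene with no count in either mock, the height is no measured fold.

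The largest falls included genes of calcium, jasmonate and stress signalling. By the rule for naming genes, the 12 largest falls include ZAT11, a C2H2 zinc finger gene, CML37, a calmodulin-like gene, the jasmonate repressor gene JAZ7, 2 genes annotated as Integrase-type DNA-binding proteins and 3 annotated as C1 domain proteins. ZAT11 (AT2G37430) had 23.1 and 25.2 CPM in the mocks and 3.93 and 3.19 under NaCl. CML37 (AT5G42380) had 35.9 and 41.01 CPM in the mocks and 8.16 and 6.99 under NaCl. JAZ7 (AT2G34600) had 84.5 and 71.4 CPM and 14.4 and 16.8. For each, both NaCl libraries lay below both mocks, and the log2 fold changes were -2.73 ± 0.14, -2.32 ± 0.10 and -2.29 ± 0.079 (highest edgeR adjusted p 4.44e-31). The DNA-binding protein genes AT1G77640 and AT5G52020 changed by -3.38 ± 0.14 and -2.53 ± 0.11 (edgeR adjusted p 1.15e-37 and 6.39e-28). Annotated as a calcium-binding EF-hand protein, AT3G29000 had 74.1 and 68.5 CPM in the mocks and 11.4 and 13.2 under NaCl (-2.51 ± 0.078, edgeR adjusted p 2.11e-45). The C1 domain genes AT1G61840, AT2G02680 and AT5G43520 changed by -2.60 ± 0.22, -2.30 ± 0.12 and -2.28 ± 0.16 (highest edgeR adjusted p 5.79e-18).

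Most genes that fell by over 2-fold at 2 log2 CPM or more were also lower in the 6 h mock than in the 15 min mock. In the 6 h mock of Col-0 JAZ7 stood at 0.393 and 0.494 CPM, CML37 at 1.55 and 1.26 and ZAT11 at 0.983 and 1.37. Of the 350 genes that fell by over 2-fold at an average level of 2 log2 CPM or more, 335 (95.7%) were lower in the 6 h mock than in the 15 min mock. The share was 50.4% over all 16149 tested genes at that level and 48.4% over the 93 genes that rose by over 2-fold. In 264 of the 350, the NaCl mean lay between the 2 mocks, and in 86 at or below the 6 h mock. Their median level was 29.6 CPM in the 15 min mock, 10.0 under NaCl and 5.62 in the 6 h mock. Those genes were picked as high in the 15 min mock, so part of the gap to another mock follows from the choice. The 2 mocks also differ in age, and neither is a seedling left untouched on its plate, so an earlier rise of these genes was not measured. A weaker rise under NaCl, a faster fall after a rise and a fall without one cannot be told apart.

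**Figure D2:**
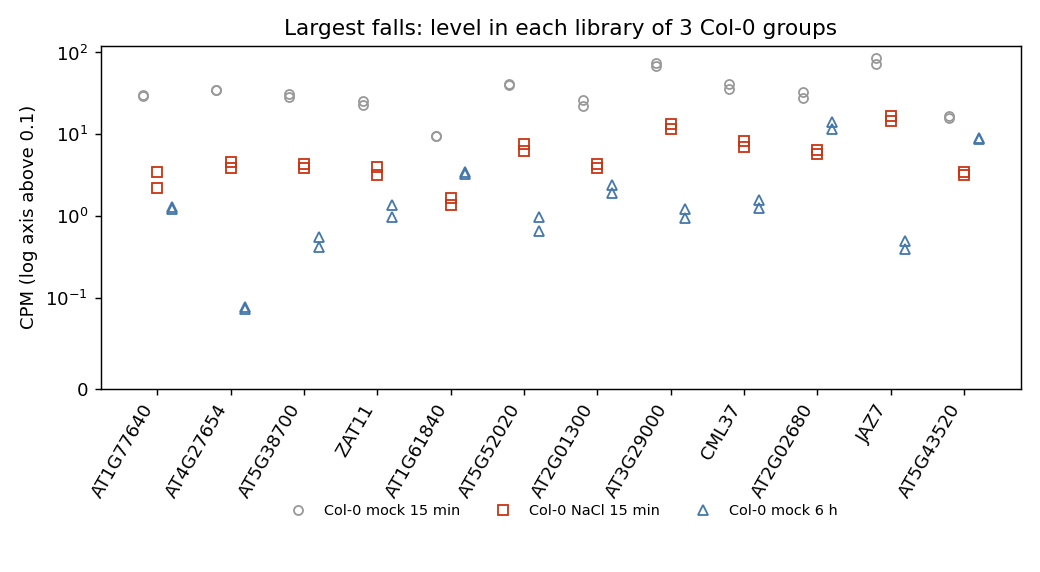
CPM (log axis above 0.1) of the 12 genes with the largest falls in each library of the Col-0 15 min mock (circles), Col-0 NaCl 15 min (squares) and Col-0 6 h mock (triangles). Both squares lie below both circles for every gene, and the triangles of JAZ7, at 0.393 and 0.494 CPM, lie lower still.

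Genes of kinase and calcium signalling mostly fell. Of 31 tested genes of the MAP kinase cascade, which relays early stress signals by phosphorylation, 18 were lower and 2 higher, with a median of -0.32. For MPK3 (AT3G45640), a MAP kinase gene, the mocks held 589.8 and 576 CPM and the NaCl libraries 335 and 333 (-0.78 ± 0.027). AP2C1 (AT2G30020), for a phosphatase that inactivates MAP kinases, had 192 and 186 CPM and 42.8 and 47.8 (-2.03 ± 0.046). MKK9 and MAPKKK14 changed by -0.97 ± 0.051 and -1.66 ± 0.066, and none of the 4 had an edgeR adjusted p above 1.11e-29. Of 23 genes for calcium-dependent kinases, calcium pumps and exchangers, 16 were lower and 1 higher, with a median of -0.24. Within that list CPK28, a calcium-dependent kinase gene, went from 436 and 426 CPM to 248 and 247 (-0.77 ± 0.029, edgeR adjusted p 4.48e-40), and CAX1, for a vacuolar calcium exchanger, from 241 and 238 to 180.3 and 183 (-0.37 ± 0.031, edgeR adjusted p 6.62e-18). RBOHD, for the NADPH oxidase that makes apoplastic superoxide, changed by -0.70 ± 0.027 (edgeR adjusted p 1.36e-38), and 10 of 18 genes of reactive oxygen production and removal were lower and 3 higher.

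Among transcription factors, all 8 ZAT and AZF genes tested were lower, with a median of -1.56. These encode C2H2 zinc finger proteins with a repressor motif. ZAT10 (AT1G27730) had 365 and 363 CPM in the mocks and 113 and 116 under NaCl, and ZAT12 (AT5G59820) 60.4 and 61.1 and 22.3 and 24.6. No library of one group overlapped the other, with -1.64 ± 0.033 and -1.35 ± 0.067 (edgeR adjusted p 9.15e-60 and 3.32e-31). Of 21 WRKY genes 16 were lower and 1 higher, with a median of -0.27. WRKY40, a repressor of ABA and defence genes, changed by -0.95 ± 0.031 and WRKY11 by -0.99 ± 0.041 (highest edgeR adjusted p 1.43e-36).

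Jasmonate genes moved both ways, more often down. Of 28 JAZ repressor and jasmonate enzyme genes 16 were lower and 7 higher, with a median of -0.24. The JAZ proteins block jasmonate responses until the hormone triggers their breakdown. Among their genes JAZ1 went from 517 and 517 CPM to 249.8 and 250.2 (-1.02 ± 0.028) and JAZ6 from 285 and 281 to 139 and 142 (-0.98 ± 0.035). LOX4, for a lipoxygenase of jasmonate synthesis, went from 449.6 and 437 to 208 and 200.4 CPM (-1.09 ± 0.03), while LOX2, a chloroplast lipoxygenase gene named after its values were seen, rose by 0.75 ± 0.032 (edgeR adjusted p 8.17e-36). The highest edgeR adjusted p of JAZ1, JAZ6 and LOX4 was 3.99e-41. JAZ10 and JAZ12, also named afterwards, moved in opposite directions, by -0.48 ± 0.054 and 0.16 ± 0.053 (edgeR adjusted p 2.44e-12 and 0.0153).

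Cell wall genes moved both ways. XTH genes encode enzymes that cut and rejoin xyloglucan, and expansins loosen the wall. Of 30 tested, 12 were lower and 12 higher, with a median of 0.03. The touch-induced XTH22 (AT5G57560, also TCH4) had 1347 and 1288 CPM in the mocks and 489 and 468 under NaCl (-1.43 ± 0.024), one of the 6 largest losses in CPM of all genes. XTH18, XTH19 and XTH23 changed by -1.73 ± 0.037, -1.59 ± 0.057 and -1.67 ± 0.055, and the highest edgeR adjusted p of the 4 was 2.19e-41. XTH18 and XTH19 are close copies, and their split of reads is uncertain. The expansin genes EXPA1 and EXPA10, both named after their values were seen, rose by 0.78 ± 0.054 and 0.93 ± 0.13 (edgeR adjusted p 2.11e-22 and 2.56e-09).

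Short motifs were counted in the promoters of the genes that changed. The window ran from 250 bases before to 50 after each annotated start (RefSeq, TAIR10.1), and both strands were searched. CGCGTT, known as a rapid stress response element, was in 8.36% of 610 promoters of genes lower by over 2-fold, in 2.60% of 730 of genes higher by over 2-fold and in 3.71% of all 21954. TTGAC, the core of the W-box that WRKY factors bind, was in 63.9%, 47.8% and 51.0%. Among 347 genes lower by over 2-fold at 2 log2 CPM or more the shares were 10.4% for CGCGTT and 64.6% for TTGAC. The heat shock element GAANNTTC was in 15.2% of the promoters of genes that fell by that much, 12.3% of those that rose and 11.4% of all. For the ABA-related ACGTGT the shares were 14.3%, 14.4% and 13.2%, and for ACGTGG 8.69%, 9.18% and 10.7%. For CACGTG, which can overlap either, they were 6.72%, 7.12% and 8.53%. Those for CCGAC, the core of the DREB site, were 11.3%, 14.2% and 15.8%, for GCCGCC, the ERF site, 1.97%, 3.15% and 2.64%, and for the clock's AAATATCT 5.25%, 5.75% and 5.87%. No motif share was tested, and a match does not show a bound site. Among the 93 genes that rose by over 2-fold at 2 log2 CPM or more, ACGTGT was in 21 (22.6%). In the same set ACGTGG and CACGTG were in 11.8% each, CCGAC in 14.0% and GCCGCC in 5.38%. GAANNTTC was in 10.8%, TTGAC in 49.5%, CGCGTT in 2.15% and AAATATCT in 6.45%.

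Upstream sequences are shown for the 3 named genes with the largest falls that have CGCGTT within the 250 bases before the start and no other annotated gene there. Of the 32 named genes lower by over 2-fold, 5 hold CGCGTT and 22 TTGAC in the longer window. Capitals mark CGCGTT and TTGAC or their reverse complements, and each sequence ends at the base before the annotated start on the strand of the gene. The regions are chr4:14827212-14827461 (minus strand) for XTH18, chr1:12851733-12851982 (plus) for EXL1 and chr1:27308263-27308512 (plus) for LOX4.
XTH18: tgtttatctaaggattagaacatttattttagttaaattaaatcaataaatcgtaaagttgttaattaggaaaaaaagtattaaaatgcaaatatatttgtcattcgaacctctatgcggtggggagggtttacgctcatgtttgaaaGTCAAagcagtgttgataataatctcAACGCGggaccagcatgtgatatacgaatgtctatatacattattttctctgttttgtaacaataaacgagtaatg
EXL1: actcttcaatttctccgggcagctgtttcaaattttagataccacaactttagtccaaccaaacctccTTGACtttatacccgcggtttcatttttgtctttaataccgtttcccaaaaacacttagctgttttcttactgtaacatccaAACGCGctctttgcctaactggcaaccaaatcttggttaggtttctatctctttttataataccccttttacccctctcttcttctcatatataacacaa
LOX4: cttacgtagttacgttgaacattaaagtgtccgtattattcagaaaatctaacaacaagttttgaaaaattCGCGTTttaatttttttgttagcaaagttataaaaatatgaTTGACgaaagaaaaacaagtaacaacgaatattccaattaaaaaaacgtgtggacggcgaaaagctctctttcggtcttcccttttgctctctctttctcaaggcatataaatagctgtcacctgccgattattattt
Each of the 3 holds 1 match of each motif. The fall of EXL1 stands out in its list and is given below.

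Abundant genes that rose included those of sugar and energy starvation. Their list also holds class II trehalose phosphate synthase (TPS) genes. Of its 16 tested genes 12 were higher and 3 lower, with a median of 0.58. Among the 12, TPS6 and TPS11 lie past or overlap the 3' end of a strongly expressed neighbour, a position described below. ASN1 (AT3G47340), the dark-induced asparagine synthetase gene, had 757 and 752 CPM in the mocks and 1467 and 1453 under NaCl (0.98 ± 0.022). DIN10 (AT5G20250), of the raffinose synthase family, went from 942 and 959 to 1507 and 1503 CPM (0.69 ± 0.021). DRM1, a dormancy-associated gene, went from 242 and 232 to 485 and 476 CPM (1.05 ± 0.029). In all 3 both NaCl libraries lay above both mocks, and the highest edgeR adjusted p was 1.13e-46. EXL1 (AT1G35140), an EXORDIUM-like gene that carbon starvation induces, fell in the same list, from 364 and 348 to 107 and 109 CPM (-1.70 ± 0.033, edgeR adjusted p 5.14e-61).

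Of the 6 genes with the largest gains in CPM, 3 belong to that list, namely ASN1, DIN10 and DRM2. The other 3 were AT3G15450, annotated as an aluminium-induced protein, BGAL1, for a beta-galactosidase, and AT5G40450. AT3G15450 had 742 and 724 CPM in the mocks and 1494 and 1488 under NaCl (1.05 ± 0.021). BGAL1 went from 609 and 623 to 1183 and 1149 CPM (0.95 ± 0.023), and the highest edgeR adjusted p of the 6 was 4.93e-38. Besides XTH22 the largest losses were of RBCS1A, PYK10, LHCB1.2, LHCB1.1 and PEN3, between -0.24 and -0.55 on the log2 scale. RBCS1A, a Rubisco small subunit gene, lost its call without replicate 2 of the Col-0 mock (edgeR adjusted p 0.0634), and the RBCS and LHCB1 genes have close copies. Of the 20 light-harvesting and Rubisco genes 17 were lower and none higher, or 1 higher with total-count scaling.

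Tandem CCCH zinc finger genes (TZF), whose proteins bind RNA and act in ABA and stress responses, rose in 5 of 7 cases and fell in 1, with a median of 0.85. TZF1 had 67.98 and 69.4 CPM in the mocks and 155 and 148 under NaCl (1.17 ± 0.042). TZF2 had 18.4 and 19.4 and 46.9 and 47.3 (1.35 ± 0.075), and TZF3 43.4 and 38.8 and 83.5 and 83.8 (1.05 ± 0.054). TZF5 changed by 0.85 ± 0.064, and the highest edgeR adjusted p of the 4 was 1.71e-20. No library of one group reached into the other in any of them.

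Genes of the cytokinin response rose as well. Type-A response regulators (ARR) are induced by cytokinin and dampen its signal, and CKX enzymes degrade the hormone. Of 16 genes 9 were higher and 1 lower, with a median of 0.56. ARR7 went from 24.8 and 24.5 to 57.01 and 56.4 CPM (1.23 ± 0.069), ARR5 from 15.3 and 16.5 to 38.5 and 36.1 (1.25 ± 0.079) and ARR6 from 9.82 and 8.996 to 25.7 and 26.3 (1.49 ± 0.099). The lowest NaCl library was above the highest mock for each, and the highest edgeR adjusted p was 1.35e-23. Of 32 Aux/IAA and GH3 genes 9 were higher, 2 lower and 21 not called, with a median of 0.10.

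Single genes of ABA synthesis and signalling rose and others fell. NCED3 (AT3G14440), for the enzyme that limits ABA synthesis, had 9.44 and 6.92 CPM in the mocks and 27.1 and 27.4 under NaCl (1.76 ± 0.12, edgeR adjusted p 2.64e-23). CYP707A3, for an enzyme of ABA breakdown, went from 139 and 144 to 75.2 and 75.4 CPM (-0.88 ± 0.043, edgeR adjusted p 6.91e-32). Of 12 genes of ABA synthesis and breakdown 2 were higher and 4 lower, beside 15.8% higher and 17.64% lower over all genes. The higher calls of this list were thus near the share over all genes. Of 9 clade A PP2C genes 4 were higher and none lower. ABI1 was among them, from 88.6 and 89.96 to 125 and 123 CPM (0.50 ± 0.044, edgeR adjusted p 3.71e-17). Without replicate 2 of the Col-0 mock 2 PP2C genes were called. Of 11 receptor genes 4 were lower and 2 higher, the latter also near the share over all genes. PYL5 and PYL6 changed by -0.87 ± 0.044 and -1.28 ± 0.10 and PYL8 by 0.42 ± 0.053 (highest edgeR adjusted p 1e-10). ABF and ABI5 family genes were higher in 4 of 8 cases and lower in 1, but at most 1 was called higher without replicate 1 of the Col-0 mock or without either NaCl replicate.

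Single regulators of drought and heat responses rose by over 2-fold. HSFA6B (AT3G22830), a heat shock factor gene, had 4.898 and 3.998 CPM in the mocks and 25.6 and 24.5 under NaCl (2.52 ± 0.13). DREB2A (AT5G05410), whose factor activates dehydration and heat genes, went from 57.5 and 61.2 to 132 and 131 CPM (1.18 ± 0.045), and the NAC gene RD26 from 24.6 and 25.4 to 50.5 and 51.96 (1.06 ± 0.072). Mock and NaCl values did not overlap in any of the 3, and the highest edgeR adjusted p was 3.11e-23. DDF1, a CBF-like AP2 gene, fell from 95.05 and 97.8 to 27.7 and 25.2 CPM (-1.84 ± 0.064, edgeR adjusted p 5.59e-42). Of 18 heat shock factor genes 6 were called higher and 4 lower, beside 15.8% and 17.64% of all genes. Higher calls numbered 1 without replicate 1 of the Col-0 mock, and 3 without mock replicate 2 or NaCl replicate 2. Lower calls were 2 without either of the latter and 1 with total-count scaling. Chaperone genes were higher in 8 of 14 and lower in none, and in 5 without mock replicate 1, NaCl replicate 1 or NaCl replicate 2. Of 17 stress NAC genes 6 were called higher and 4 lower.

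Genes for protective proteins moved both ways. Of 21 dehydrin, LEA and RD genes 7 were higher, 4 lower and 10 not called, beside 33.4% called over all genes, with a median of 0.0046 beside 0.0067 over all genes. Without mock replicate 1 or NaCl replicate 1, 4 were called higher. Without mock replicate 2, and with total-count scaling, 2 were called lower. LTI78 (also RD29A), a classic dehydration and cold gene, went from 305 and 297 to 471 and 458 CPM (0.65 ± 0.029), and RD20, for a caleosin, from 6.05 and 4.87 to 8.95 and 10.8 (0.89 ± 0.17). ERD14, a dehydrin gene, went from 862 and 890.0 to 772 and 754 CPM (-0.17 ± 0.023), and none had an edgeR adjusted p above 1.11e-05. Of 22 genes of proline, galactinol, raffinose and starch metabolism 10 were higher and 1 lower, with a median of 0.19. RS5, a raffinose synthase gene, had 45.1 and 41.2 CPM and 79.8 and 85.5 (0.96 ± 0.06, edgeR adjusted p 2.17e-25).

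Among genes of ion transport, calls were mostly lower. Of 23 genes of sodium, potassium and proton transport 7 were lower, 1 higher and 15 not called, beside 14691 of 22066 not called over all genes, with a median of -0.14. CBL1, for a calcium sensor of CIPK kinases, went from 97.6 and 97.8 to 41.6 and 40.03 CPM (-1.23 ± 0.057) and HAK5, a high-affinity potassium transporter gene, from 22.9 and 20.9 to 8.205 and 10.2 (-1.23 ± 0.13). SOS1, the plasma membrane sodium exporter gene, and SOS2, for its kinase, were not called, at 0.045 ± 0.081 and 0.24 ± 0.15. AHA2, a plasma membrane proton pump gene, changed by -0.34 ± 0.023, and the highest edgeR adjusted p of CBL1, HAK5 and AHA2 was 2.23e-13. SOS1 and SOS2 were named after their values were seen. Of 18 aquaporin genes 7 were higher and 7 lower. PIP2;4 went from 64.1 and 68.8 to 30.6 and 26.6 CPM (-1.19 ± 0.07) and TIP2;1 from 614 and 625 to 836 and 817 (0.44 ± 0.024), with edgeR adjusted p 3.43e-25 and 2.67e-29. Of 18 root markers 6 were lower and none higher, or 1 higher without mock replicate 2, in the same libraries. CASP1, of the Casparian strip, went from 54.6 and 55.2 to 21.8 and 20.2 CPM (-1.36 ± 0.075, edgeR adjusted p 2.07e-28). Of 8 guard cell and stomatal lineage markers 3 were higher and none lower, among them FAMA (0.77 ± 0.10, edgeR adjusted p 4.85e-10). SnRK2 kinase genes were lower in 3 of 10 and higher in 1, and lower in 1 with total-count scaling.

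The remaining lists were mixed, beside 15.8% higher and 17.64% lower over all genes. Of 14 HD-Zip I factor genes 4 were called higher, or 7 with total-count scaling, and 3 lower. Calls among 16 CBF, DREB2 and RAP2.4 group genes were 3 higher and 4 lower, and among 9 C and S1 group bZIP genes 3 higher and 3 lower. Of 3 CAMTA genes 1 was lower and 1, CAMTA1, higher, and the latter call was lost with DESeq2 and without any 1 of the 4 Col-0 libraries. Of 23 ethylene genes 9 were called higher, or 5 without NaCl replicate 1, and 7 lower. Calls were 4 higher and 3 lower of 19 gibberellin genes, 5 and 8 of 18 clock genes, and 1 and 3 of 10 low-oxygen genes. For the clock list, higher calls fell to between 2 and 3 without mock replicate 1 or either NaCl replicate, with DESeq2 or with no filter. Its lower calls fell to between 4 and 5 without mock replicate 2 or NaCl replicate 1, or with total-count scaling.

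**Figure D3:**
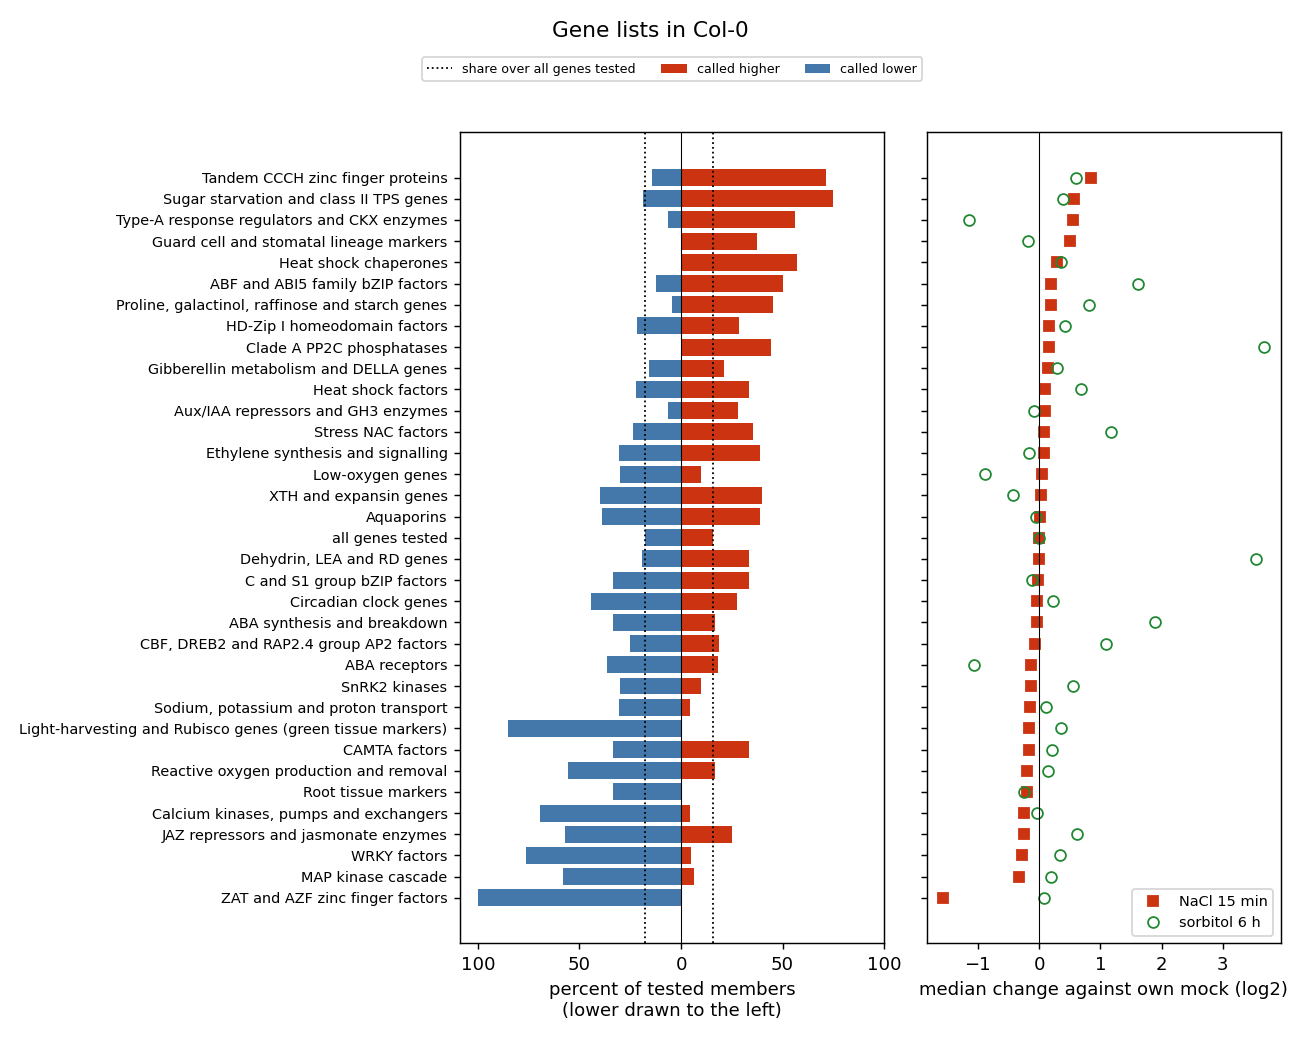
Left, percent of each list's tested members called higher (red, to the right) and lower (blue, to the left) under NaCl in Col-0, with dotted lines at the shares over all genes tested, 15.8% and 17.64%. Right, each list's median log2 fold change for NaCl 15 min (squares) and sorbitol 6 h (circles) against its own mock; ZAT and AZF factors lie at -1.56 and 0.07, and dehydrin, LEA and RD genes at 0.0046 and 3.54.

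The largest rises were in genes with few reads in the mock, and 7 of the 12 lie beside a strongly expressed gene. Reads of a gene are here the reads that overlap its annotated locus, from whichever transcript they come. A neighbour is the next annotated locus on either side, expressed or not, and genes beyond it were not looked at. These 7 lie within 1000 bases past the 3' end of a neighbour with 100 CPM or more in the mock, 1 of them overlapping it. Of those 7 neighbours 1 was higher under NaCl, 4 were lower and 2 were not called. The 12 were taken from 93 genes higher by over 2-fold at 2 log2 CPM or more. Of these 93, 10 (10.8%) lie past or overlap such a 3' end, beside 4.91% of all genes tested. Those 2 shares use the neighbour's level in the Col-0 6 h mock. AT2G17830, an F-box gene, had 2.88 and 4.098 CPM in the mocks and 41.4 and 40.8 under NaCl (3.58 ± 0.11, edgeR adjusted p 2.66e-44). It abuts the 3' end of ERD7 with 0 bases between, on the opposite strand. ERD7, a senescence and dehydration gene, had a mean of 725 CPM in the mocks and 714 under NaCl, and its log2 fold change was 0.0046. AT5G20260 overlaps the 3' end of DIN10 by 82 bases and had 0.791 and 1.12 CPM and 12.6 and 12.1 (3.71 ± 0.20, edgeR adjusted p 8.16e-29).

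The other 5 of the 7 lie on the same strand as the neighbour. AT1G49490, 279 bases past AT1G49500, rose from 2.35 and 2.45 CPM to 16.04 and 16.03 (2.77 ± 0.17, edgeR adjusted p 2.44e-26), and its neighbour had means of 116 and 105 CPM. The remaining 4 lie 50 to 176 bases past the 3' end. The gap between each pair is shown because the counted rise lies directly behind it. The sequences run 5' to 3' on that strand in TAIR10.1, with the gap in capitals between the last 15 bases of the abundant gene and the first 15 of the gene that rose. They are chr3:18210334-18210452 (plus strand), from PRXCB to AT3G49130, chr2:13684249-13684298 (minus), from AT2G32240 to AT2G32235, chr4:18555356-18555531 (minus), from AT4G40030 to AT4G40020, and chr3:21034456-21034533 (minus), from CAM3 to AT3G56790.
AT3G49130: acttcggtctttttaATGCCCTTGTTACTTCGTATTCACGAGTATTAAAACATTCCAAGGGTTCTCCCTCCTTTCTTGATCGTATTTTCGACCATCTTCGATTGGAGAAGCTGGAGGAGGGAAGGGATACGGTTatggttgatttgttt
AT2G32235: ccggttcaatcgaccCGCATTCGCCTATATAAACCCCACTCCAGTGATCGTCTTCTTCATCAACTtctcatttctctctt
AT4G40020: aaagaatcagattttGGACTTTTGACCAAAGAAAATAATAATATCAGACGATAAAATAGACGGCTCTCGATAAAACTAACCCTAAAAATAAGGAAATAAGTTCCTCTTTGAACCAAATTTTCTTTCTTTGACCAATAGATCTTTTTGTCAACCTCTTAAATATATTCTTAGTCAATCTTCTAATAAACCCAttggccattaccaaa
AT3G56790: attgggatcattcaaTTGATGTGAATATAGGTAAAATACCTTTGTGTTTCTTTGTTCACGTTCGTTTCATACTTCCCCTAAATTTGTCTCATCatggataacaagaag
AT3G49130 rose from 0.842 and 1.12 CPM to 11.5 and 13.2 (3.67 ± 0.19), while PRXCB, a peroxidase gene with a close copy, had means of 357 CPM in the mocks and 253 under NaCl. AT2G32235 rose from 1.51 and 1.299 to 10.2 and 10.9 CPM (2.94 ± 0.21) behind AT2G32240, with means of 422 and 409 CPM. AT4G40020 rose from 1.403 and 2.02 to 11.01 and 13.4 CPM (2.85 ± 0.19), and its neighbour AT4G40030, a histone gene, had means of 168 and 154 CPM. AT3G56790 rose from 1.68 and 2.12 to 10.8 and 11.2 CPM (2.56 ± 0.18), and CAM3, a calmodulin gene with close copies, had means of 266 and 222 CPM. The highest edgeR adjusted p of the 4 rises was 2.56e-21.

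The other 5 of the 12 had no such neighbour, and an abundant gene beyond the next locus would have been missed. AT1G19040, a NAC domain gene, lies 419 bases past the 3' end of ARR7 on the opposite strand and had 0.332 and 0.4498 CPM and 15.8 and 15.2 (5.32 ± 0.25, edgeR adjusted p 1.4e-33). AT1G73510 and AT3G45660 lie 313 and 285 bases past the 3' ends of neighbours with 25.6 and 27.0 CPM in the mock. AT3G49710 rose from 3.14 and 2.17 to 19.2 and 18.1 CPM (2.84 ± 0.15, edgeR adjusted p 1.75e-29). The one neighbour facing it with a 3' end within 3000 bases, an overlapping locus, was at 0 CPM in the mock and under NaCl. AT4G29200 met the rule on the strength of seu-6, where it had 535 to 799 counts per library in the 15 min experiment. In Col-0 it had no count in either mock and 4 and 2 counts under NaCl, and no fold is given.

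**Figure D4:**
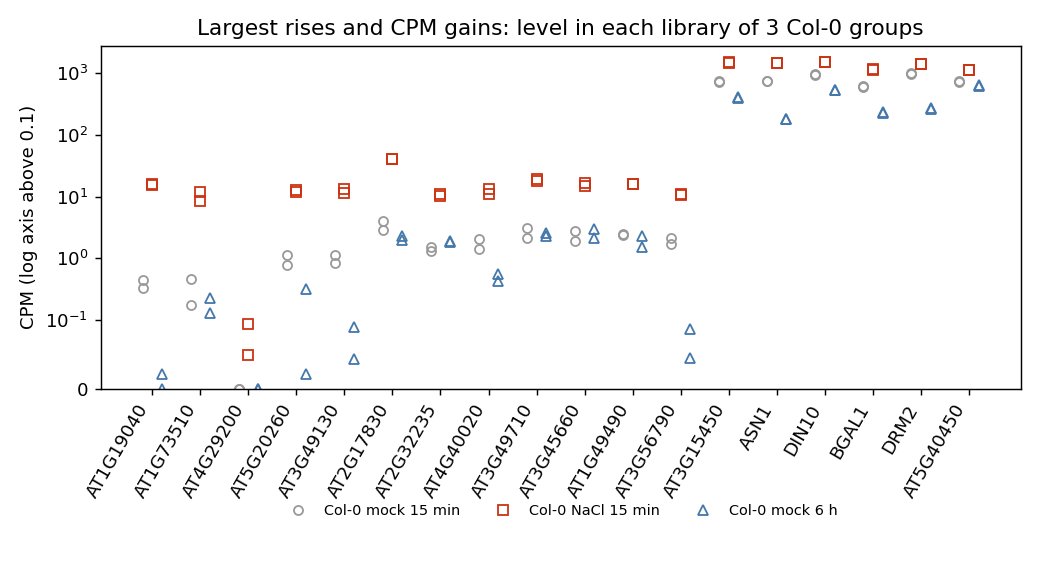
CPM (log axis above 0.1) of the 12 largest rises and, at the right, the 6 largest gains in CPM, in each library of the Col-0 15 min mock (circles), Col-0 NaCl 15 min (squares) and Col-0 6 h mock (triangles). Both squares lie above both circles for every gene, and for AT2G17830 the triangles, at 2.01 and 2.31 CPM, lie near the circles.

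The same was counted over more genes. After the pattern was seen, a class was set up from libraries outside the comparison, the Col-0 6 h mock: genes under 2 CPM there, within 1000 bases past the 3' end of a neighbour at 100 CPM or more and not facing the 5' end of such a neighbour. It holds 349 genes. Of these, 158 and 157 (45.3% and 45.0%) had a count in the Col-0 mocks and 241 and 245 (69.1% and 70.2%) under NaCl. In seu-6 153 and 147 had one in the mocks and 227 and 233 under NaCl. In the Col-0 6 h experiment 156 and 143 had one in the mocks, and 155 and 150 in sorbitol. In this number the NaCl libraries of both genotypes lay above all 12 others. The summed level of the class in Col-0 was 273 and 277 CPM in the 15 min mocks and 339 and 352 under NaCl. It was 89.8 and 88.8 CPM in the 6 h mocks, where the class was picked as low, and 327 and 344 in sorbitol. By that measure the class also rose in sorbitol.

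Genes as low that face the other end of an abundant neighbour moved less. Of 264 within 1000 bases of its 5' end, 109 and 108 (41.3% and 40.9%) had a count in the Col-0 mocks and 128 and 120 (48.5% and 45.5%) under NaCl. Of 14142 with no abundant neighbour within that distance, 5369 and 5406 (38.0% and 38.2%) had one in the mocks and 6290 and 6250 (44.5% and 44.2%) under NaCl. By edgeR, 75 of the 168 tested genes of the 3' class (44.6%) were called higher, beside 15.8% of all genes, against 12 of 79 (15.2%) in the 5' class and 542 of 4038 (13.4%) in the last. The medians were 1.28, 0.10 and 0.03 on the log2 scale. A gene could pass the filter on low counts through the NaCl libraries alone, so these tested genes are not all members of the classes. The filter can thus raise the shares called higher and the medians, also in seu-6. Over all members, 75 of 349, 12 of 264 and 542 of 14142 were called higher. In seu-6 73 of the 168 were called higher under NaCl (43.5%), beside 12% of all genes. In sorbitol 34 of the 168 were called higher (20.2%), against 16.5% in the 5' class and 18.6% in the class with no abundant neighbour. These classes were picked as low in the mock of the sorbitol experiment, and their tested genes passed the filter of the NaCl experiment. Genes with few counts in the sorbitol experiment can hardly be called there. The share in sorbitol can therefore not be set beside that of all genes, nor beside the share under NaCl.

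**Figure D5:**
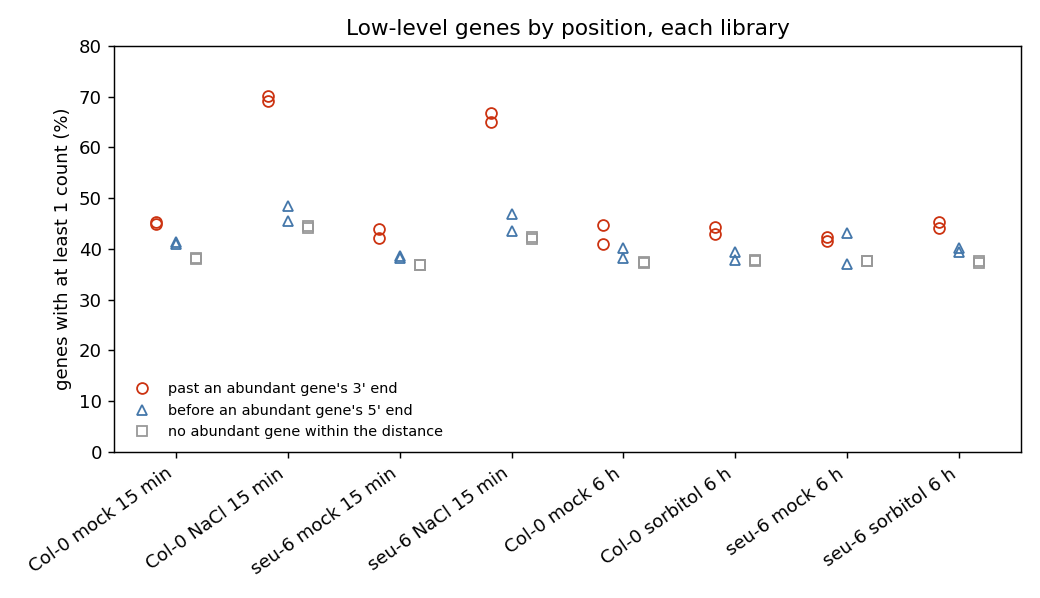
Percent of low-level genes with at least 1 count (vertical axis) in each of the 16 libraries, by group, for 349 genes past an abundant gene's 3' end (circles), 264 before an abundant gene's 5' end (triangles) and 14142 with no abundant neighbour within 1000 bases (squares). Neighbours are the next annotated loci alone. The circles lie between 65.0% and 70.2% in the 4 NaCl libraries and between 41.0% and 45.3% in the other 12.

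Shares called higher by distance and by the neighbour's level are over tested genes alone, which could pass the filter through the NaCl libraries, and are given as a description. Among low-level tested genes facing the 3' end of a neighbour at 100 CPM or more, 50 of 102 were called higher within 300 bases, 31 of 73 from 300 to 1000 bases, 8 of 55 from 1000 to 3000 and 0 of 13 farther away. Facing a 5' end, the same counts were 6 of 31, 11 of 55, 7 of 67 and 3 of 39. Within 1000 bases of a 3' end, 13.9% of genes were called higher where the neighbour had under 10 CPM, 25.6% at 10 to 30, 34.3% at 30 to 100, 44.0% at 100 to 300 and 55.9% at 300 or more. Within 1000 bases of a 5' end the shares at those levels were 13.0%, 12.5%, 10.4%, 23.9% and 0 of 15. Of the 75 genes called higher in the 3' class, the abundant neighbour was itself higher for 21, lower for 20 and not called for 34. The median log2 fold change of these neighbours was -0.0072. On the same strand as the neighbour lay 41 of the 75, and on the opposite strand 34.

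Over the whole comparison, 331 genes had no count in both mocks and 3 or more in both NaCl libraries, and 33 the reverse. Of the 331, 51 (15.4%) lie within 1000 bases past the 3' end of an abundant neighbour or overlap it, against 0 of the 33 and 4.09% of 32548 loci. The share was 15.2% of the 730 genes higher by over 2-fold, 1.61% of the 622 lower and 4.91% of all tested. Of 152 list members called higher 9 lie so, namely AREB3, HSP90.1, TPS6, TPS11, PROT3, PIP2;3, APX2, CAT1 and EXPB1. The tables give neither strand nor the place of reads in a gene. Reads of a transcript that starts in the gene and of one that starts in its neighbour therefore cannot be told apart, and a count here does not show that the gene's own promoter was used.

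Set beside 6 h of sorbitol, several lists differed in the size or the direction of their change. The 2 experiments differ in solute, time, age and mock, and which of these bears on a difference cannot be told apart. The difference between the 2 responses was called by edgeR for 11712 of 22582 genes (51.9%). Clade A PP2C genes had a median of 0.16 under NaCl and 3.68 under sorbitol, where 9 of 9 were higher. Dehydrin, LEA and RD genes were higher in 21 of 21 under sorbitol, with a median of 3.54. RD20 stood at 6.53 and 6.398 CPM in the 6 h mock and 369 and 362 in sorbitol, and its NaCl response minus its sorbitol response was -4.93 ± 0.14 (log2, edgeR adjusted p 1.28e-32).

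Type-A ARR and CKX genes went the other way, with a median of 0.56 under NaCl and -1.14 under sorbitol. ARR6 had 14.2 and 16.3 CPM in the 6 h mock and 5.25 and 5.42 in sorbitol, and the difference between its responses was 3.01 ± 0.15 (edgeR adjusted p 2.51e-27). DIN10 rose under NaCl and fell in sorbitol from 541 and 536 to 99.8 and 98.8 CPM, a difference of 3.13 ± 0.038 (edgeR adjusted p 2.24e-60). ASN1 rose in both, by 0.98 and 0.81. Of the 3482 genes higher under NaCl, 1227 were higher in sorbitol (35.2% of the NaCl list and 19.1% of the sorbitol list) and 959 lower, beside 28.7% higher and 29.5% lower of all genes tested in sorbitol. Of the 3893 lower under NaCl 1263 were lower in sorbitol (32.4% of the NaCl list and 19.2% of the sorbitol list) and 1594 higher.

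The NaCl response of seu-6 differed from that of Col-0 for 1585 of 22066 genes (7.18%) by edgeR's interaction test, and for 18 of the 36 genes named by size, of which 7 lost the call under some alternative. The 2 responses share no libraries, but their difference uses the same Col-0 libraries by which the named genes were picked. Part of a smaller change in seu-6 can follow from that choice. DREB2A rose by 1.18 in Col-0 and 2.26 in seu-6, a difference of 1.08 ± 0.066 (edgeR adjusted p 1.42e-24). ZAT10 changed by -1.64 and -0.79, a difference of 0.86 ± 0.046 (edgeR adjusted p 6.48e-28). TZF5 rose by 0.85 in Col-0 and was at -0.058 in seu-6, a difference of -0.90 ± 0.091 (edgeR adjusted p 2.75e-13).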

How the data were processed

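The authors deposited raw read counts per gene, 1 table per library, as whole numbers. Per the submitters' processing notes they used HISAT2 2.2.1, HTSeq 0.13.5, DESeq2 and the build TAIR10. The strand setting is not given in the sources used here, so counts of overlapping and antisense genes are uncertain. The 5 summary lines, 8.78% to 12.7% of reads, were left out. Of 32833 loci 32548 were found in RefSeq TAIR10.1, which gave names, positions and sequences.

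Genes passing filterByExpr were tested with edgeR 4.0.16 (quasi-likelihood, robust, TMM) in R 4.3.3 on the 8 libraries of the 15 min experiment, with 4 residual degrees of freedom, and with all 16 for sorbitol. Standard errors are the fold change over the square root of F. An adjusted p under 0.05 is a call. Scripts were tested on simulated data. DESeq2 1.42.0 and other settings were alternatives. Positions and motifs were computed in Python 3.11.15.

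Named were, among calls at 2 log2 CPM or more on average, the 12 largest rises and falls, the 6 largest gains and losses in CPM, and up to 4 members of each of 34 lists with the smallest p. Of 613 list members 25 that did not match the reference were dropped. Members and lists were chosen with earlier results of these data known.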

Additional observations from a re-analysis of the deposited data

Results flagged for a closer look

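For 18 of the 36 genes named by size, the NaCl response of seu-6 differed from that of Col-0 by edgeR's interaction test. The differences below are seu-6 minus Col-0, in log2. These genes were picked by the size of their change in Col-0, so part of a smaller change in seu-6 can follow from the choice.

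Among the largest falls, seu-6 differed by 1.43 for AT4G27654, 0.81 for AT2G01300, 0.85 for AT3G29000 and 1.28 for CML37, so these fell less in seu-6. XTH22 and PEN3 also fell less, by 0.20 and 0.092. Among the largest gains in CPM, the difference was -0.49 for AT3G15450, -0.46 for ASN1, -0.25 for DIN10, -0.27 for BGAL1 and -0.33 for DRM2, so these rose less in seu-6.

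Genes that were low in the mock went both ways. The difference was -1.22 for AT1G73510, -0.91 for AT3G49130, -1.31 for AT2G32235, -0.94 for AT4G40020 and -0.78 for AT1G49490. It was 1.98 for AT5G20260 and 1.13 for AT3G56790. Of these 7, only AT5G20260 kept the call under every alternative run. The call was lost with DESeq2 for AT1G73510 (adjusted p 0.0687), AT1G49490 (0.0607) and AT3G49130 (0.0524). With 1 library left out, the least difference that lost the call was -0.69 for AT1G73510 (edgeR adjusted p 0.475), -0.50 for AT1G49490 (0.378), -0.66 for AT3G49130 (0.267), -0.67 for AT4G40020 (0.231), -0.93 for AT2G32235 (0.109) and 0.87 for AT3G56790 (0.082). PEN3 lost it without seu-6 mock replicate 1 (edgeR adjusted p 0.123). The cause of these differences was not tested.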

How the results depend on the processing

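Counts of calls moved furthest with total-count scaling, to 5152 genes higher and 3007 lower. Genes called higher ranged from 2315 to 3644 when 1 library was left out, and 74.3% to 99.7% of the 7375 calls were kept across alternatives. With the replicate block 7341 genes were called and 7294 of the 7375 calls were kept; the replicate numbers do not pair the samples (correlations -0.019 to 0.010). For the named genes' NaCl response, 2393 values under alternatives stayed on their side of the threshold, 36 lost the call and none changed sign. The rise in low-level genes with a count past an abundant 3' end, 24.5 percentage points, was 22.7 within 300 bases, 23.55 with neighbours of 50 CPM or more, 30.2 for genes under 0.5 CPM and 22.2 with 3 or more counts, and 23.9 to 25.1 with 1 library left out. These settings were chosen after seeing the data. For differences between genotypes, 25 values lost the call and 16 gained it. With 1 library left out, differences that were not called changed sign for 5 genes: the values ranged from -0.49 to 0.050 for AT2G17830, -0.43 to 0.92 for AT5G38700, -0.18 to 0.48 for AT5G52020, -0.031 to 0.23 for JAZ7 and -0.042 to 0.012 for LHCB1.1. The cause was not tested. Genes under a few counts per library limit any fold.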
